A study of Sus scrofa with 5 samples.

Results

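The subject here is how gene expression in a transplanted pig kidney moved between the biopsies taken at 12 h and at 24 h after it was placed in a human recipient. The comparison sets the single 24 h library against the single 12 h library, which are 2 of the 5 libraries of the series. Genes were taken from the table of reads counted over a pig genome, and 11567 of its 15235 gene symbols had at least 50 counts in one or both of these libraries. The question is which parts of the graft's early response were still moving on the first day. With 1 biopsy at each time no test was made, and each fold is read against the difference of the same gene between the 2 untransplanted control libraries.

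The study sequenced kidney tissue from a second case of pig-to-human kidney xenotransplantation. Bulk RNA sequencing was done on total RNA from homogenised core biopsies after depletion of ribosomal RNA. The control group is kidney that was not transplanted, labelled 0 h, with 2 libraries. The graft groups are 1 biopsy each at 12, 24 and 48 h from the xenograft. The organism is given as pig for every library, the tissue as kidney and the treatment of the 0 h libraries as control. The cell type field speaks of dissociated kidney cells, while the protocol describes core biopsies. Strain, genotype, sex and age of the pigs, and whether the control kidney and the graft came from the same animal, are not given in the sources used here. The labels do not tell whether the control libraries are 2 animals or 1, so the spread between them may be technical.

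Kidney epithelium works at a high metabolic rate, with proximal tubule cells burning fatty acids and the distal segments reclaiming sodium, calcium and magnesium. After ischemia and reperfusion, tubule cells are known to lose such differentiated functions and to switch on stress genes within hours, among them genes of the oxidative, endoplasmic reticulum and heat shock responses. Repair that follows involves proliferation of surviving epithelium and deposition of matrix by fibroblasts, on a scale of days.

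The pig table held between 56129926 and 71108823 counts per library, and the 12 h and 24 h libraries held 63238072 and 66169176. Levels are given as CPM, a count divided by the library size, after TMM scaling, which sets libraries level on the bulk of their genes. A level of 1 gene can be compared between libraries, but levels of different genes cannot, since counts grow with transcript length. The 13 mitochondrially encoded genes took 12.0% of counts at 12 h and 14.5% at 24 h, and 21.9% and 33.4% in control replicates 1 and 2. Over 12327 genes the chi-square between the controls was 218 times its degrees of freedom, where pure sampling would give about 1, so they are not one library deposited again. Kidney markers were present in every library, including UMOD, made in the thick ascending limb, at 5137 CPM at 12 h and 5001 CPM at 24 h. At this depth counting error is small for all but the rarest genes. Intervals in brackets are exact binomial 95% intervals and cover counting error only, because amplified reads carried no molecular identifier and are not counts of molecules.

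A gene is said to have risen or fallen when its level at 24 h was at least 2-fold above or below that at 12 h and this fold was larger than the one between its own control libraries. Counts under 3 were set to 3 before a fold was taken. By this rule 333 genes (2.88% of those kept) rose and 181 (1.56%) fell, 514 genes or 4.44% in all. Between the control libraries 67 of the same genes (0.579%) differed at least 2-fold. A further 7 genes were 2-fold higher and 4 were 2-fold lower at 24 h but differed as much between the controls. The median gene differed 1.17-fold between 12 and 24 h and 1.1-fold between the controls, and 1 gene in 10 differed by at least 1.64-fold and 1.33-fold respectively. The median log2 difference over all genes was -0.0038, and 49.4% of genes were higher at 24 h by any amount. By any amount beyond their control pair, 32.3% were higher and 32.3% were lower.

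**Figure D1:**
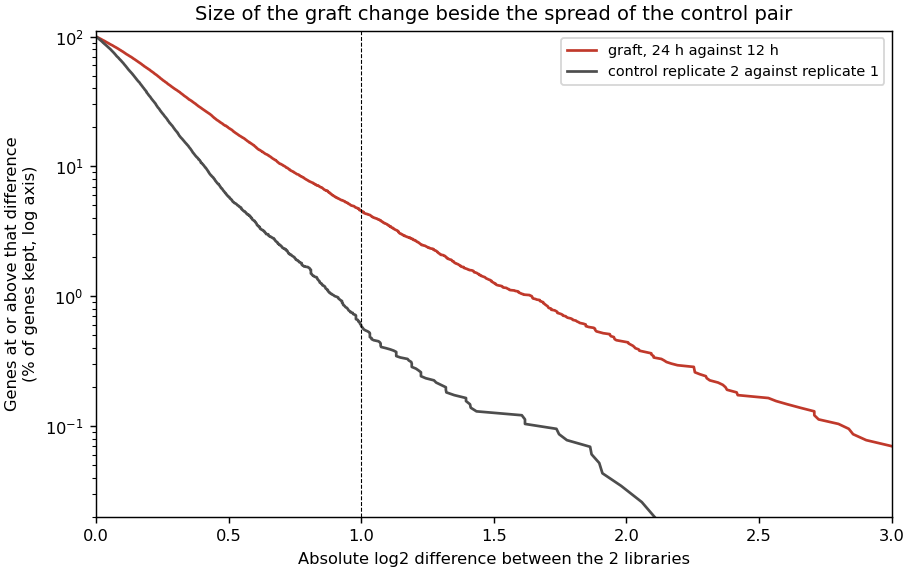
Share of the 11567 genes (vertical axis, percent, log scale) whose absolute log2 difference is at least the value on the horizontal axis, for the graft at 24 h against 12 h (red) and for control replicate 2 against replicate 1 (grey). The dashed line marks a 2-fold difference. The graft curve lies above the control curve over the whole range plotted.

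How often a gene was called depended on its count. Among the 1379 genes with a mean count under 200 in the 12 h and 24 h libraries, 11.1% rose, 6.09% fell and 3.77% differed 2-fold between the controls. Among the 5541 genes with a mean count of 2000 or more these shares were 1.03%, 0.614% and 0.0722%. Of the 52 genes with fewer than 10 counts in both controls, 25 were called, against 4.44% of all genes. For these the control pair gives little guide to the spread. Just inside the threshold lay CCDC158 on the higher side and SRXN1 and LGR6 on the lower side. Just outside it lay ACBD4 and TMEM100, and NEXN and SPOCK3, all of these within rounding of 2-fold.

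**Figure D2:**
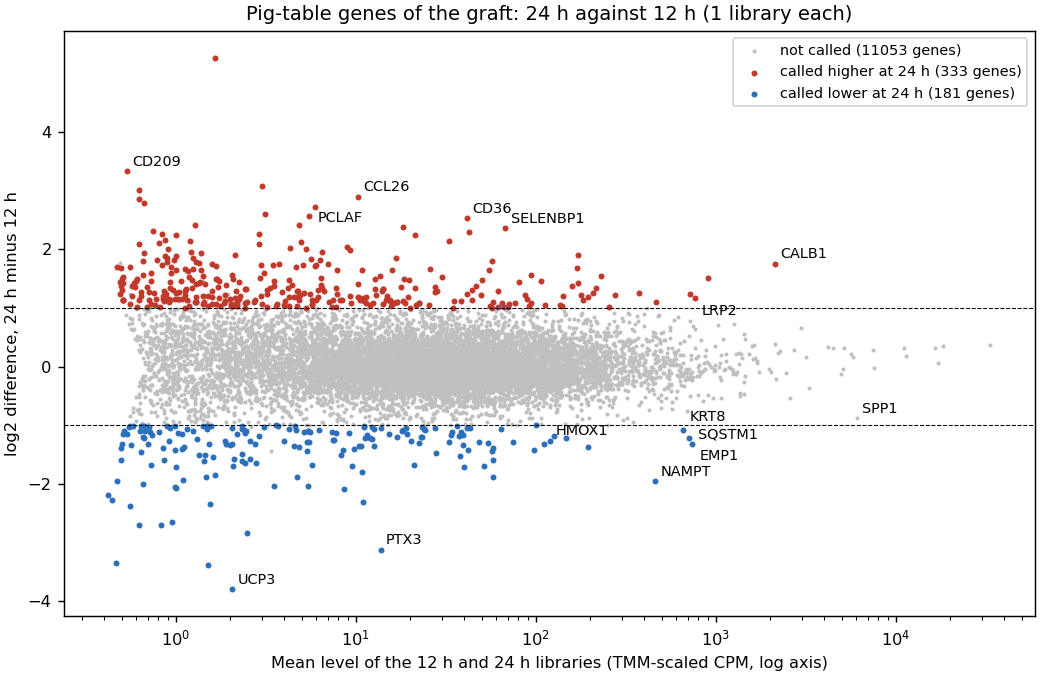
Log2 difference of each of the 11567 genes between the 24 h and the 12 h library (vertical axis) against its mean level in the 2 libraries (horizontal axis, CPM, log scale). Red points are the 333 genes that rose, blue points the 181 that fell and grey points the rest. Most of the widest differences lie at low levels, while CALB1, LRP2, NAMPT and EMP1 stand out at high levels.

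Most calls went from a 12 h level outside the control pair toward the controls or past them. Of the 333 genes that rose, 240 stood below both controls at 12 h, and 131 of these were still below both at 24 h. At 24 h, 175 of the 333 stood above both controls. Of the 181 genes that fell, 158 stood above both controls at 12 h, 111 were still above both at 24 h and 54 had dropped below both. These tallies use the same 12 h and 24 h values as the calls and are a description. Neither they nor the 48 h tallies below were made over all genes kept. The control pair is narrow (median 1.1-fold), so the tallies are not shown to be particular to the called genes. In the later biopsy at 48 h, which the calls did not use, 187 of the genes that rose stood higher still, 138 lay between their 12 h and 24 h levels and 8 were below their 12 h level. Among the genes that fell, 62 stood lower still at 48 h, 109 lay between the 12 h and 24 h levels and 10 were above their 12 h level.

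Several nephron genes rose, CALB1 and LRP2 with the most reads. Of 12 thick ascending limb and distal tubule genes, 4 rose and 0 fell, beside 2.88% and 1.56% of all genes, and their median log2 difference was 0.66, against -0.0038 over all genes. CALB1 encodes calbindin, a calcium-binding protein of the distal convoluted and connecting tubule. It stood at 1846 and 1555 CPM in the controls, 970 at 12 h, 3273 at 24 h and 830 at 48 h. The 24 h biopsy was thus the highest of the 5 libraries, and the biopsies on either side of it were the lowest. CALB1 rose 3.38-fold (3.35 to 3.4), against 1.19-fold between the controls. SLC12A3, the thiazide-sensitive sodium chloride cotransporter of the same segment, measured 164 and 191 CPM in the controls, 26.7 at 12 h, 74.3 at 24 h and 46.4 at 48 h. It rose 2.78-fold, and all graft biopsies remained below both controls. TRPM6, a magnesium channel, went from 11.5 to 24.9 CPM (2.18-fold) beside 33.0 and 27.5 in the controls. CLDN14, a tight junction gene of the thick ascending limb, rose 2.01-fold on 39 and 79 counts. By contrast UMOD, a marker of the thick ascending limb, had a log2 difference of -0.04.

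In the proximal tubule list, 1 of 20 genes rose, 0 fell and 15 were higher by any amount, with a median log2 difference of 0.28. Over all genes 2.88% rose, 1.56% fell and 49.4% were higher by any amount. LRP2 encodes megalin, the endocytic receptor that retrieves filtered protein. Its level was 3353 and 3101 CPM in the controls, 471 at 12 h, 1057 at 24 h and 873 at 48 h. LRP2 rose 2.24-fold (2.21 to 2.27), and the 24 h level was still under both controls. The phosphate transporter gene SLC34A1 was 1.79-fold higher at 24 h and CUBN, the partner of megalin, 1.57-fold, both short of the threshold. SLC5A12, a lactate transporter gene, had a log2 difference of -0.61 in the other direction, with 323 CPM at 12 h and 211 at 24 h beside 2774 and 2681 in the controls. Proximal tubule genes did not all move one way between these biopsies.

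No collecting duct gene of 13 passed in either direction, although 11 were higher at 24 h by more than their control pair, as were 32.3% of all genes, and the median log2 difference was 0.54. The vasopressin receptor gene AVPR2 had the widest difference, from 6.26 to 11.7 CPM. AQP3 and KRT7 went the other way, with log2 differences of -0.66 and -0.60. Where 2.88% of all genes rose and 1.56% fell, 1 of 8 podocyte genes rose and 0 fell. This was TCF21, a transcription factor of podocytes and stromal cells, which went from 6.47 CPM at 12 h to 14.6 at 24 h beside 27.3 and 20 in the controls. Of 19 genes of sodium, acid-base and volume control, 2 rose and 1 fell. KCNJ10, a basolateral potassium channel of the distal nephron, rose from 29.9 to 69.6 CPM, and CA2, a cytosolic carbonic anhydrase, from 168 to 343 CPM. Under scaling by total counts alone CA2 had a log2 difference of 0.97 and was no longer called.

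The summed level of the markers in the table was higher at 24 h for each nephron list. The thick ascending limb and distal tubule sum was 7231 CPM at 12 h and 10005 at 24 h, against 6498 and 5934 in the controls. CALB1 made up most of that difference, and without it the sum was 6261 CPM at 12 h and 6732 at 24 h. The proximal tubule sum was 11082 and 13458 CPM, against 31637 and 32724. The collecting duct sum was 1285 and 1426, or 1144 and 1189 without HSD11B2, the gene of a cortisol-inactivating enzyme, and that of the podocyte list 206 and 272. A core biopsy samples a small piece of tissue, and its mixture of segments was not measured apart from these genes. Fewer cells of a type and less RNA per cell cannot be told apart in bulk tissue, and the part of segment content in the folds was not tested.

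The 10 genes with the most reads among those that rose were taken up after their values were seen, and several are known from tubular epithelium. CYP2C42, a cytochrome P450 gene, read 446 and 482 CPM in the controls, 469 at 12 h, 1342 at 24 h and 542 at 48 h. The 24 h biopsy alone stood out, 2.86-fold above the 12 h one. AOC1, which encodes the histamine-degrading diamine oxidase, rose 2.15-fold, CLDN2, a tight junction gene of the leaky proximal tubule, 2.32-fold, and GBA3, a cytosolic beta-glucosidase gene, 2.53-fold. For AOC1, CLDN2 and GBA3 the 24 h level was below both controls. IGFBP5, encoding a binding protein of insulin-like growth factors, rose 2.92-fold, from 117 to 341 CPM beside 401 and 441 in the controls. Also picked after seeing values, HNF4G, a nuclear receptor gene of tubular epithelium, went from 12.1 to 53.8 CPM and came close to its 65.9 and 69.6 CPM in the controls. The ammonia transporter genes RHCG and RHBG rose 2.39-fold and 2.14-fold.

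**Figure D3:**
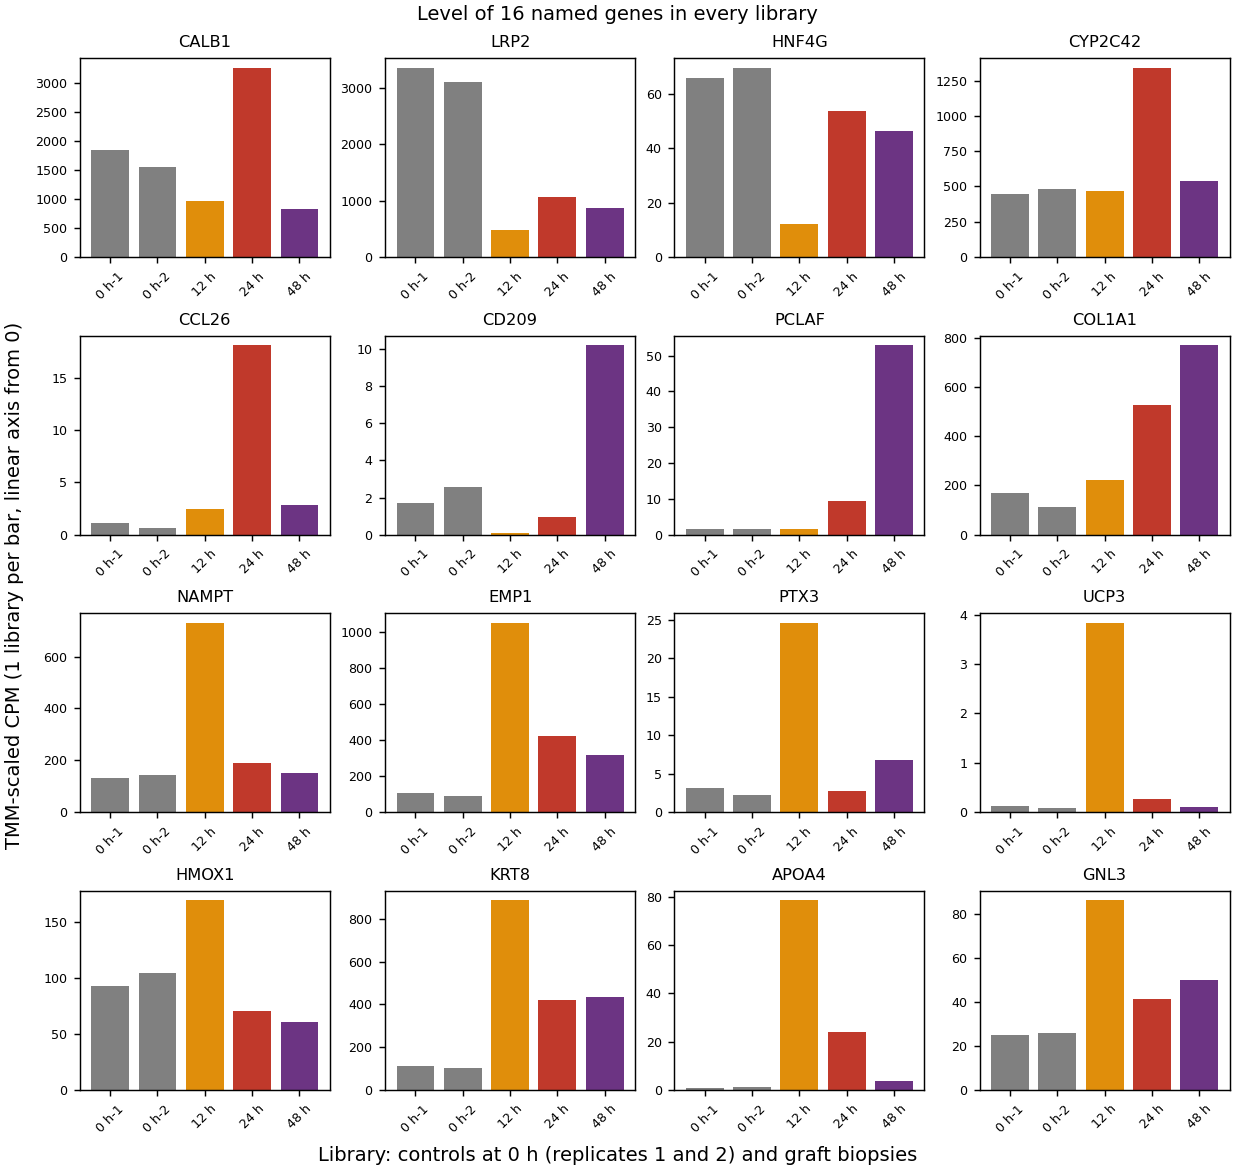
Level of 16 genes (vertical axes, CPM, linear from 0) in each of the 5 libraries, with 1 bar per library: control replicates 1 and 2 in grey, then the 12 h (orange), 24 h (red) and 48 h (purple) biopsies. The genes in the upper rows were higher at 24 h than at 12 h and those in the lower rows were lower, among them NAMPT, EMP1 and UCP3, whose 12 h bar is the tallest.

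Most of the listed genes of the cell cycle were higher at 24 h, many from a low base. Of 35 mitosis genes, 13 rose and 0 fell, beside 2.88% and 1.56% of all genes, and the median log2 difference was 0.75. Many of these genes had few reads: 16 members had at least 200 counts at either time, and of these 4 rose (25%, against 1.98% of all genes with such counts) with a median of 0.41. NCAPG, a condensin subunit gene, stood at 0.485 and 0.267 CPM in the controls, 0.402 at 12 h, 2.15 at 24 h and 18.0 at 48 h. The 12 h biopsy lay between the controls, and the 24 h biopsy was 5.35-fold higher on 29 and 156 counts. BUB1B, a spindle checkpoint kinase gene, rose 4.41-fold and PBK, a mitotic kinase gene, 4.29-fold. TOP2A, encoding the topoisomerase that untangles replicated chromosomes, went from 2.2 to 7.14 CPM and then to 71.4 at 48 h. MELK and KIF20A were over 2-fold higher as well, but differed more between the controls and were not called. Relative to the control mean, the median of the list was 0.33 at 12 h, 1.58 at 24 h and 4.08 at 48 h on the log2 scale. The summed level of the list, in which genes with many reads weigh most, was nearly level between the 2 biopsies. It was 276 CPM at 12 h and 291 at 24 h, against 238 and 241 in the controls.

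The DNA replication list had 34 members, of which 7 rose and 0 fell, again beside 2.88% and 1.56% of all genes, with a median log2 difference of 0.42. Its summed level was 910 CPM at 12 h and 986 at 24 h, against 667 and 691 in the controls. UHRF1, a chromatin factor that guides maintenance of DNA methylation in S phase, read 0.937 and 0.764 CPM in the controls, 1.84 at 12 h, 8.07 at 24 h and 26.1 at 48 h. Every graft biopsy was above both controls, and each later biopsy was above the one before. E2F1 and E2F2, transcription factors of the G1 to S transition, rose 3.36-fold and 4.78-fold. PCLAF, whose product binds the replication clamp PCNA, went from 1.58 CPM at 12 h, close to its 1.52 and 1.47 in the controls, to 9.34 at 24 h (5.92-fold, 4.84 to 7.28). MCM3, a subunit of the replicative helicase, rose 2.11-fold on 659 and 1395 counts, and MCM2, another subunit, was 1.7-fold higher. The arrest gene CDKN1A, on the p53 list, was 1.75-fold lower at 24 h. In that list GADD45B, a stress-induced growth arrest gene, fell 2.72-fold and was the single call among 15 members.

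Stress genes were for the most part lower at 24 h. Of 13 oxidative stress and metal response genes, 3 fell, 0 rose and 12 were lower by any amount, with a median log2 difference of -0.39. Over all genes 1.56% fell, and 49.4% were higher by any amount. HMOX1 encodes heme oxygenase, which degrades heme. It measured 92.7 and 105 CPM in the controls, 170 at 12 h, 70.9 at 24 h and 60.5 at 48 h. The 12 h biopsy was the highest library, and from 24 h on the gene stood below both controls, a fall of 2.4-fold. MT1A, a metal-binding metallothionein gene, fell 3.48-fold, from 16.8 to 4.82 CPM, close to its 3.7 and 4.66 CPM in the controls. SRXN1, encoding sulfiredoxin, which restores oxidised peroxiredoxins, went from 133 to 66.5 CPM at the edge of the threshold. NQO1 and TXNRD1, further genes of this response, were 1.63-fold and 1.57-fold lower.

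In the unfolded protein response, 1 of 19 genes fell (1.56% of all genes did), 0 rose (2.88%) and 18 were lower by any amount. The call was DDIT3, the transcription factor of endoplasmic reticulum stress also known as CHOP, with 8.9 and 10.3 CPM in the controls, 32.5 at 12 h, 14.1 at 24 h and 9.31 at 48 h. Its excess over the controls at 12 h was the widest of the 3 biopsies. TRIB3, a target of the same branch, was 1.97-fold lower. The endoplasmic reticulum chaperone gene HSPA5 had a log2 difference of -0.03. Of 15 heat shock genes none passed in either direction, 12 were lower by any amount and the median was -0.24. SQSTM1, encoding the autophagy receptor p62, was among the genes with the most reads that fell: 308 and 332 CPM in the controls, 995 at 12 h, 427 at 24 h and 441 at 48 h.

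All 19 ribosome biogenesis genes kept were lower at 24 h, each by more than its control pair, with a median log2 difference of -0.56. A difference of that kind was found in 32.3% of all genes. GNL3, the gene of the nucleolar GTPase nucleostemin, fell 2.09-fold and was the only one of the list past 2-fold. It stood at 24.8 and 26.0 CPM in the controls, 86.2 at 12 h, 41.2 at 24 h and 50.2 at 48 h. DKC1, a component of the RNA pseudouridylation complex, was 1.96-fold lower, DDX21, a nucleolar helicase, 1.85-fold and NPM1, nucleophosmin, 1.69-fold. The list stood 1.06 above the control mean at 12 h and 0.45 above it at 24 h on the log2 scale. NPM3, a relative of NPM1 taken up after its value was seen, fell 3.7-fold from 90.7 CPM at 12 h, beside 3.4 and 3.7 in the controls.

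**Figure D4:**
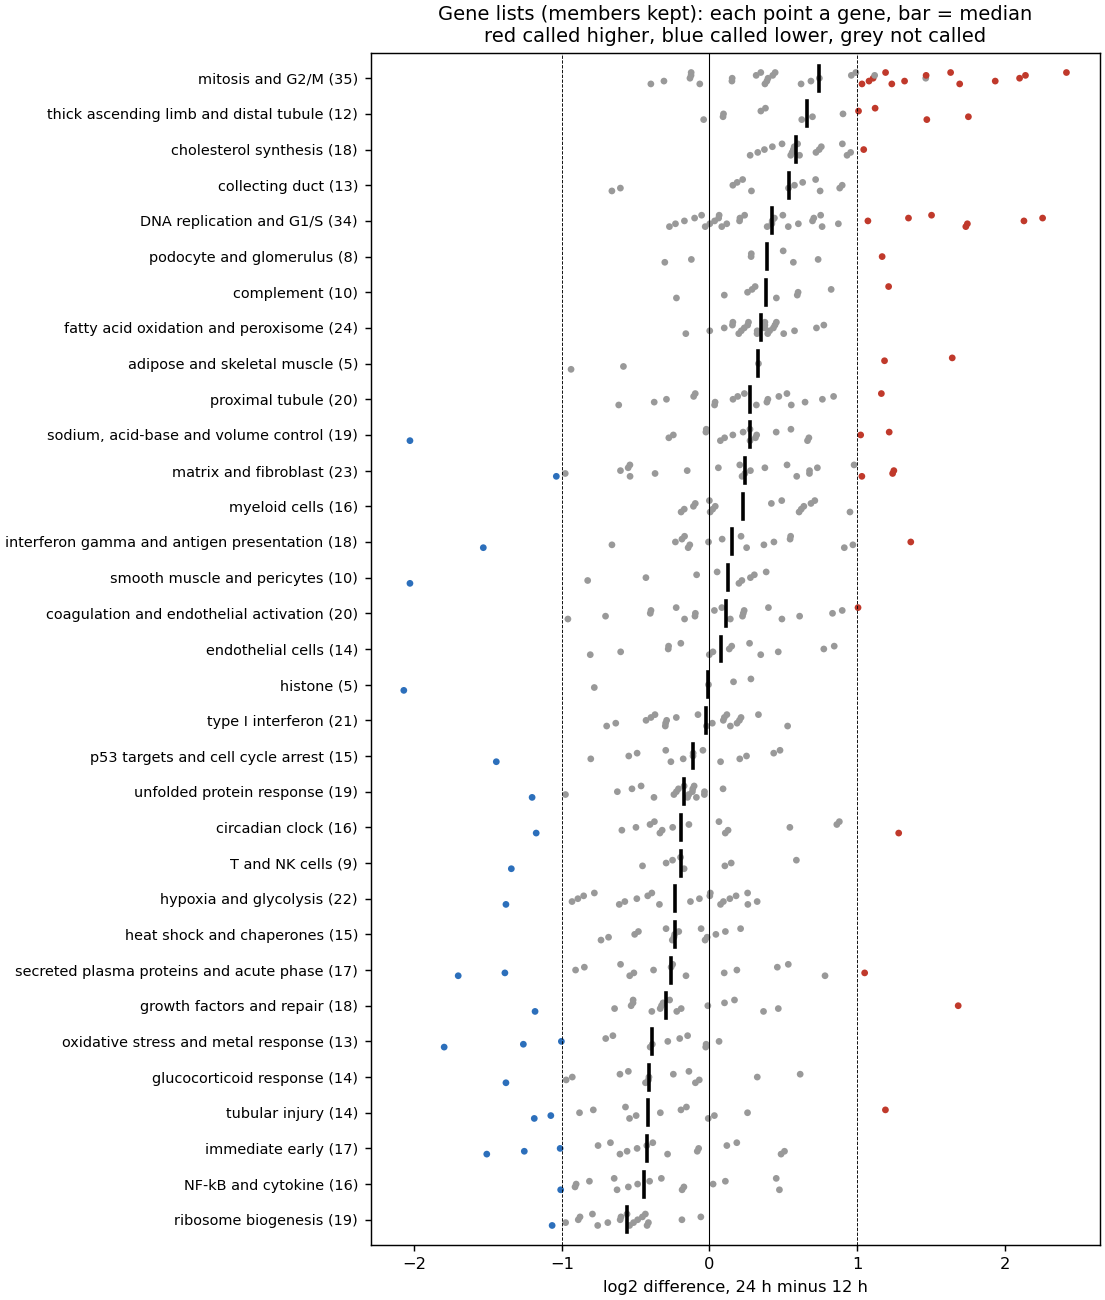
Log2 difference at 24 h minus 12 h (horizontal axis) of the kept members of each list with at least 5 of them, with 1 point per gene and the number of genes in brackets. Black bars are list medians, red points rose, blue points fell and grey points were not called. Mitosis, distal tubule and cholesterol synthesis lists have the highest medians, and the ribosome biogenesis list has the lowest.

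Among 14 tubular injury genes, 2 fell, 1 rose and 11 were lower by any amount (median -0.41). Of all genes, 1.56% fell and 2.88% rose. KRT8, a keratin that injured tubular epithelium makes in excess, read 111 and 105 CPM in the controls, 888 at 12 h, 422 at 24 h and 437 at 48 h. TIMP1, an inhibitor of matrix metalloproteinases, read 8.12 and 6.13 CPM in the controls, 175 at 12 h, 76.8 at 24 h and 75.5 at 48 h. Both fell by a little over 2-fold and then held, still far above the controls. The median of the whole list relative to the control mean did not stay down. On the log2 scale it was 2.2 at 12 h, 1.67 at 24 h and 2.37 at 48 h. SPP1, encoding osteopontin, was 1.84-fold lower at 24 h and so not called, with 7840 CPM at 12 h and 4260 at 24 h beside 75.5 and 73.7 in the controls. PROM1, a surface protein of tubular progenitor-like cells, rose 2.29-fold, from 6.26 CPM to 14.3, near its 17.2 and 16 CPM in the controls.

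The genes with the most reads among those that fell were led by EMP1, an epithelial membrane protein gene, with 107 and 90.8 CPM in the controls, 1054 at 12 h, 424 at 24 h and 318 at 48 h. NAMPT encodes the rate-limiting enzyme of NAD salvage. Its levels were 133 and 142 CPM in the controls, 731 at 12 h, 189 at 24 h and 151 at 48 h. NAMPT fell 3.87-fold (3.8 to 3.95), and at 24 h it had covered most of the way back to the controls. PDK4, a kinase that blocks pyruvate oxidation, fell 2.6-fold and, with 436 and 430 CPM in the controls, moved away from them rather than toward them. It was the single call in both the glucocorticoid response list (14 genes, median -0.41) and the hypoxia and glycolysis list (22 genes, median -0.23). Of all genes, 1.56% fell. ENTPD5, a nucleotide phosphatase gene of the endoplasmic reticulum, fell 2.33-fold, and ANGPTL4, encoding an inhibitor of lipoprotein lipase, 2.5-fold.

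Immediate early genes, which answer stimuli within minutes, had 3 of 17 members fall and 0 rise (median -0.42), where 1.56% of all genes fell. FOSL1 fell 2.85-fold from 12.2 CPM at 12 h, where the controls had 0.117 and 0.0382. FOSB had 114 and 51.7 CPM in the controls, 10.6 at 12 h, 4.44 at 24 h and 2.34 at 48 h. FOSB thus fell 2.39-fold on a gene that differed 2.21-fold between the controls, and with total counts as the scale it was not called (log2 -1.31, less than its control pair). ATF3 fell 2.02-fold. Of 16 NF-kB and cytokine genes 12 were lower by any amount (median -0.45), and LIF, a cytokine of the interleukin 6 family, was the only call, at 2.01-fold. PTX3, a secreted pattern recognition protein induced by such signals, had one of the widest falls at 8.72-fold: 3.11 and 2.2 CPM in the controls, 24.6 at 12 h, 2.82 at 24 h and 6.76 at 48 h. Its human-table counts ran from 457 to 69 at the same times beside 1778 and 205 in the pig table.

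Interferon genes showed no common direction. None of 21 type I interferon genes passed, with 10 higher and 11 lower by any amount and a median of -0.02. ISG15 had the widest difference, from 27.6 to 17.1 CPM. In the interferon gamma and antigen presentation list 1 of 18 genes rose and 1 fell, beside 2.88% and 1.56% of all genes. CXCL9, a chemokine that draws T cells, rose 2.58-fold: 2.83 and 2.62 CPM in the controls, 15.4 at 12 h, 39.6 at 24 h and 41.6 at 48 h. CXCL10, a chemokine of the same family, had 63.5 CPM at 12 h and 63.2 at 24 h. GBP2, an interferon-induced GTPase gene, fell 2.89-fold to 19.5 CPM, close to its 16.6 and 17.0 CPM in the controls. The class II genes SLA-DMB and SLA-DMA were 1.96-fold and 1.88-fold higher, from 12 h levels below both controls. In the human table CXCL9 had 699 counts at 12 h and 515 at 24 h and GBP2 had 1207 and 845, both lower at 24 h, and sharing of reads between the tables was not tested.

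Of 10 complement genes 1 rose, 0 fell and 9 were higher by any amount (median 0.38). Over all genes 2.88% rose, 1.56% fell and 49.4% were higher by any amount. C2, a protease of the classical and lectin pathways, went from 7.77 to 18.0 CPM and then to 38.6 at 48 h, beside 4.59 and 4.16 in the controls. Among 20 coagulation and endothelial activation genes the median was 0.11 and 1 rose. This was VWF, the von Willebrand factor gene, from 23.0 to 46.3 CPM (2.01-fold) beside 22.3 and 15.3 in the controls. With total counts as the scale VWF had a log2 difference of 0.95 and was not called. NOS3, the endothelial nitric oxide synthase gene, was 1.94-fold lower and PROCR, the endothelial protein C receptor gene, 1.87-fold higher. None of 14 endothelial markers passed, 8 being higher and 6 lower (median 0.08), with EMCN 1.8-fold higher and CLDN5 1.75-fold lower. Their summed level was 1255 CPM at 12 h and 1424 at 24 h, against 771 and 639 in the controls.

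Both genes of type I collagen rose. In the matrix and fibroblast list of 23 genes, 3 rose and 1 fell (median 0.24), beside 2.88% and 1.56% of all genes. COL1A1 stood at 168 and 113 CPM in the controls, 222 at 12 h, 528 at 24 h and 770 at 48 h, so every graft biopsy was above both controls and the level was higher at each later time. It rose 2.38-fold (2.33 to 2.42), against 1.49-fold between the controls. COL1A2, its partner chain in type I collagen, rose 2.36-fold, and COL5A2 rose 2.05-fold. COL5A2 had a log2 difference of 0.98 with total counts as the scale and was then not called. TNC, a matricellular protein of wounds, fell 2.05-fold, from 31.4 to 15.3 CPM, and with total counts as the scale (log2 -1.09) its difference no longer exceeded that of its control pair. CCN1, another matricellular gene, was 1.97-fold lower. The controls themselves were apart in this list, with a median log2 difference of -0.53 for replicate 2 against replicate 1.

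The lists for cholesterol synthesis and fatty acid oxidation were higher at 24 h, mostly by less than 2-fold. All 18 cholesterol synthesis genes kept were higher, 17 of them by more than their control pair (32.3% of all genes were), and the median log2 difference was 0.59. MSMO1, a sterol demethylation enzyme gene, was the one call at 2.06-fold, with 92.3 and 97.2 CPM in the controls, 72.9 at 12 h, 151 at 24 h and 118 at 48 h. With total counts as the scale its log2 difference was 0.99 and it was not called. IDI1 was 1.94-fold higher and FDFT1, squalene synthase, 1.91-fold. Of 24 fatty acid oxidation and peroxisome genes none passed, but 23 were higher and 20 exceeded their control pair (median 0.35). HADHA, of the mitochondrial trifunctional protein, had the widest difference, from 224 to 384 CPM beside 434 and 441 in the controls. CD36, a fatty acid uptake receptor, rose 5.8-fold, from 12.1 to 70.2 CPM, and the 12 h biopsy was below both controls (42.3 and 31.5) and the 24 h one above them. FABP4, a fatty acid binding protein of adipocytes and capillaries, rose 2.28-fold, while the adipocyte genes PLIN4 and CIDEC had log2 differences of -0.58 and -0.94 and LEP had 0 counts in every library. CKM, the muscle creatine kinase gene on the same list of adipose and muscle markers, rose 3.13-fold on 48 and 151 counts.

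**Figure D5:**
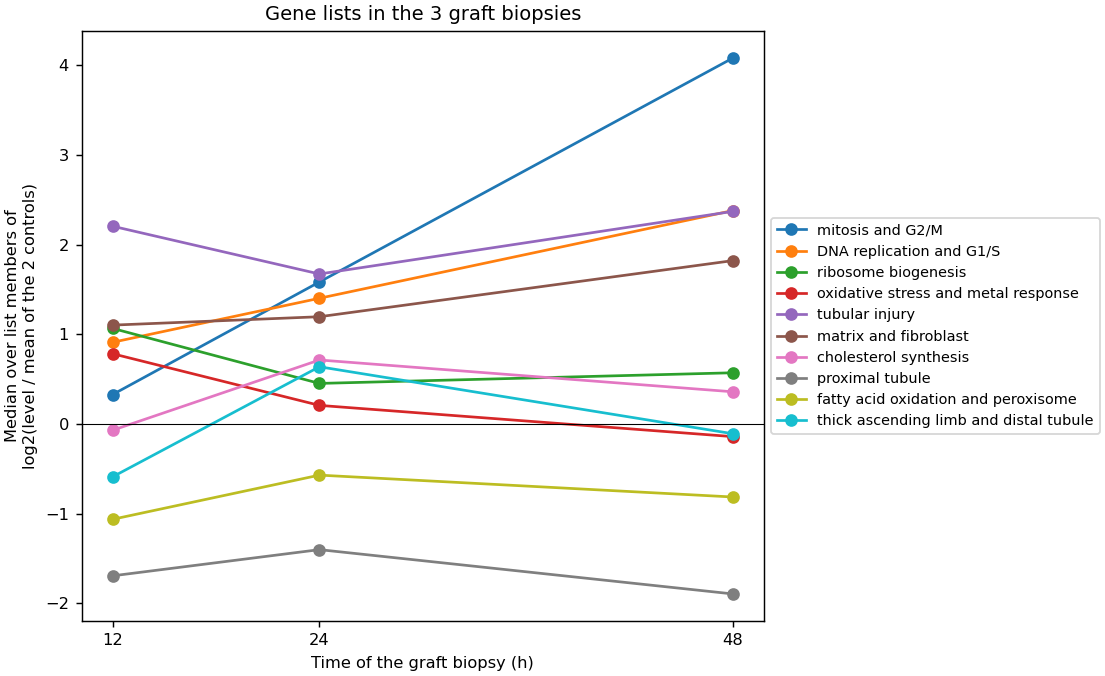
Median over the members of 10 lists of the log2 ratio of each graft biopsy to the mean of the 2 controls (vertical axis) against the time of the biopsy in hours (horizontal axis), with 1 library at each time. Mitosis and DNA replication lists are higher at each later time, the stress and ribosome biogenesis lists are highest at 12 h, and the distal tubule list is highest at 24 h.

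Genes of plasma proteins, which the kidney makes little of in health, were mixed, with 1 of 17 rising and 2 falling (median -0.26). Of all genes, 2.88% rose and 1.56% fell. APOA4, an apolipoprotein gene, measured 0.971 and 1.03 CPM in the controls, 78.7 at 12 h, 24.2 at 24 h and 3.75 at 48 h, a fall of 3.25-fold between the first 2 biopsies. FGG, a fibrinogen chain gene, fell 2.61-fold from 83.2 CPM, beside 13.4 and 12.5 in the controls. FGB, the gene of another fibrinogen chain, was 1.88-fold lower. HPX, whose product binds free heme, rose 2.07-fold, from 14 to 29.1 CPM beside 8.25 and 9.32 in the controls, and had a log2 difference of 0.99 with total counts as the scale. The albumin gene ALB had 10 counts at 12 h and 14 at 24 h and was not kept.

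Clock genes moved in both directions. Of 16, 1 rose and 1 fell, where 2.88% and 1.56% of all genes did. NR1D1, a repressor of the clock, had 35.3 and 38.3 CPM in the controls, 3.88 at 12 h, 9.44 at 24 h and 8.59 at 48 h, and rose 2.43-fold. DBP, TEF and HLF, output factors of the clock, were higher by log2 0.88, 0.86 and 0.55. CRY1, a core repressor, fell 2.26-fold, from 54.8 to 24.3 CPM, and NFIL3 and ARNTL had log2 differences of -0.59 and -0.37. The clock hours at which the biopsies were taken are not given in the sources used here. Among 18 growth factor genes IGF1 rose 3.22-fold (1.84 to 5.91, on 17 and 55 counts) and INHBB, an activin subunit gene, fell 2.27-fold.

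Leukocyte markers of the pig table moved little. None of 16 myeloid genes passed, with a median of 0.23, which was 0.04 at a minimum of 10 counts, 0.42 at a minimum of 200 and 0.42 without genes that had more human-table counts. They had a summed level of 590 CPM at 12 h and 757 at 24 h, against 254 and 298 in the controls. CSF1R, the receptor of macrophage colony-stimulating factor, had the widest difference at 1.94-fold, and PTPRC, the pan-leukocyte gene, a log2 difference of 0.04. Of 9 T and NK cell genes 1 fell, IL7R, on 58 and 23 counts, and CD3G had 0 counts in every library. Of all genes, 1.56% fell. Of 3 B and plasma cell genes 1 fell, TNFRSF17, from 6.99 to 2.71 CPM. The neutrophil marker CSF3R differed more between the controls than between the biopsies, and ELANE had 0 counts in every library. The hemoglobin gene HBB was at 110 and 62 counts in the pig table and at 4964 and 3098 in the human one. It was the only red cell gene kept, none of 2 urothelial and 2 platelet genes passed, and 0 thymus genes were kept.

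Many of the widest folds belonged to genes with few reads. The hairpin symbol ssc-mir-10390 rose 38.6-fold (17.5 to 106) on 6 and 233 counts, but stood at 3.9 and 7.79 CPM in the controls and at 0.0894 CPM at 48 h, so the 12 h and 48 h biopsies were the low ones. CD209, a lectin of macrophages and dendritic cells, rose 10.1-fold on 7 and 71 counts and reached 10.2 CPM at 48 h, beside 1.71 and 2.6 in the controls. CCL26, the eosinophil chemokine eotaxin-3, had 1.09 and 0.668 CPM in the controls, 2.42 at 12 h, 18.1 at 24 h and 2.8 at 48 h. It rose 7.48-fold (6.39 to 8.81), and the 24 h biopsy stood alone. KLB, the co-receptor of metabolic fibroblast growth factors, rose 7.23-fold toward its level in the controls, and the kallikrein gene KLK4 8.06-fold. SELENBP1, a selenium-binding oxidase gene, rose 5.15-fold from 22.0 to 113 CPM, beside 31.6 and 34.6 in the controls, and held 114 CPM at 48 h. S1PR3, a sphingosine 1-phosphate receptor, rose 6.61-fold and GRIN3A, a glutamate receptor subunit gene, 8.45-fold. APOBEC1, GPRC6A, TRPA1 and ABCA6 completed the 15 widest rises, at 5.2-fold to 6.96-fold.

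On the other side, UCP3, a mitochondrial carrier related to the uncoupling protein of brown fat, fell 13.9-fold on 277 and 20 counts. Its levels were 0.134 and 0.0955 CPM in the controls, 3.84 at 12 h, 0.276 at 24 h and 0.104 at 48 h, so a single biopsy carried it. SYNPR, a synaptic vesicle gene, fell 10.5-fold and the peptide gene NMU 10.2-fold on 61 and 6 counts. NMU had 0 counts in both controls and at 48 h. CDO1, a cysteine-degrading enzyme gene, fell 7.15-fold and NETO2, an auxiliary subunit gene of kainate receptors, 4.93-fold. NSG1 and DUOXA2 fell 6.54-fold and 6.3-fold from 12 h levels near those of the controls to levels below them. The others of the 15 widest falls, GRIK3, F2RL3, NKAIN1, ADTRP, CITED1, TMEM45B and H1-2, fell between 4.2-fold and 6.54-fold. All 7 of these stood above both controls at 12 h.

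Reads from recipient cells could add to pig-table counts where sequences are alike. Of the kept genes, 11522 have a symbol that is also in the human table, and 321 of these had more human-table than pig-table counts at 12 or 24 h. Among them 16 rose and 6 fell, where 2.88% and 1.56% of all genes kept did. Without these 321 genes, 317 genes rose and 175 fell.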

How the data were processed

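The authors deposited raw read counts per gene symbol in 2 tables, one for a pig genome and one for a human genome, with 1 column for each of the 5 libraries. All values were whole and each column had its own total. The submitters' processing notes name hg38, and the mapping and counting software, strandedness, the pig annotation and whether a read could count in both tables are not given in the sources used here. Each column was matched to its sample by time and replicate, and 0 columns were left unmapped.

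From the counts, CPM values were computed with TMM scaling over the 5 libraries (edgeR 4.0.16 in R 4.3.3; Python 3.11.15 with SciPy 1.17.1 for intervals). Genes with at least 50 counts at 12 or 24 h were kept, and counts under 3 were set to 3. A call needed a 2-fold difference that exceeded the one between the 2 controls. The scripts were tested on simulated data. As alternatives, other scalings (DESeq2 1.42.0 size factors, upper quartile, total counts), count minimums, fold thresholds and spreads were run.

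The comparison and the 39 gene lists (736 entries, 617 symbols in the pig table and 547 kept) were chosen with earlier results of these data known. Named genes are the 15 widest calls each way with gene symbols that are not locus names, up to 3 called members per list and direction, the widest member of lists with no call, the 2 genes on each side of the threshold, and defining cell type markers. The 10 called genes with the most reads each way, and genes said to be so, were chosen after values were seen. Promoter motifs that had been planned were not analysed here, and some named genes are not reported here. Of the kept symbols 10928 were found in the RefSeq table and 11200 in the Ensembl one. Sex-linked genes of the human table were left out. The 48 h library entered the scaling and is given as a value.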

Additional observations from a re-analysis of the deposited data

Results flagged for a closer look

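Human-table counts lay outside the comparison. They numbered 31.2 per 100 pig-table counts in the 12 h biopsy and 29.0 per 100 in the 24 h biopsy, above the 22.8 and 18.8 per 100 in control replicates 1 and 2. The origin of these counts in the controls and in the biopsies was not tested.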

How the results depend on the processing

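The counts of 333 genes that rose and 181 that fell were kept within 1.5 times by every scaling tried: 334 and 181 with DESeq2 size factors, 335 and 181 with upper quartile scaling, 333 and 181 with TMM over the 2 graft libraries or without mitochondrial genes, and 289 and 205 with total counts alone. Under total counts alone, 289 of the 333 and 173 of the 181 remained, the median of all genes was -0.06 and 223 genes differed 2-fold between the controls, against 67. A minimum of 10 counts gave 493 and 315 genes and a minimum of 200 gave 204 and 115. A fold threshold of 1.5 gave 1045 and 629, and one of 3 gave 83 and 42. A prior count of 2 gave 326 and 168. Without either control replicate no spread is left, and the 2-fold rule alone gave 340 higher and 185 lower whichever was left out. At the minimum of 200 counts the medians of the adipose and skeletal muscle list (-0.125) and of the histone list (0.0786) changed sign, with fewer genes in each. No paired analysis was possible because the graft groups have 1 library each. Leaving out a graft library leaves no comparison.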
